A study of Mus musculus with 58 samples.

Results

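The kidney response to tetrachloroethylene (PCE) was followed across its doses, with the question of which genes changed in a graded way, which changed in a step, and which changed direction. PCE is a chlorinated solvent used in dry cleaning and metal degreasing. All 14 kidney libraries labelled PCE were used, of 58 libraries in the series. They come from male mice aged 5 to 6 weeks, B6C3F1/J per the labels' protocol and C57BL/6 per another label. Mice were given a single intragastric dose in a vehicle of 5% Alkamuls EL-620 in saline at 5 mL/kg, which every group received. The groups were vehicle alone (2 libraries) and PCE at 30, 100, 300 and 1000 mg/kg (3 libraries each), which the labels equate to 0.22, 0.67, 2 and 6 mmol/kg. The sources used here do not give how long after dosing the kidneys were taken. The labels do not say that each library is a separate animal, so p-values measure the spread between these libraries.

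The doses are about evenly spaced on a log scale, so they were ranked 0 to 4 and a straight line was fitted to log2 expression over rank. The slope is the log2 change per rank. In the kidney, PCE and its metabolites meet the proximal tubule, which reabsorbs most of the filtrate, burns fatty acids for energy and cleaves cysteine conjugates formed from glutathione. PPARa is a nuclear receptor for fatty acids that drives genes of fatty acid oxidation, and ATF4 is made when amino acids run short or the endoplasmic reticulum (ER) is stressed and drives amino acid synthesis, transport and tRNA charging.

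Library totals were 24992192 to 32420329 counts, and the top 10 genes held 13.41 to 15.59% of them. The tissue label was borne out by proximal tubule markers, whose sodium-phosphate transporter Slc34a1 was at 9540 to 13900 CPM, a count scaled to library size, in all 14 libraries. The library labelled 6 mmol/kg replicate 1 stood apart. Among 9499 genes with a mean of at least 3 CPM, 59 lay more than 2-fold below the lowest value of the other libraries and 24 more than 2-fold above the highest, against at most 4 and 1 in any other library. The trend counts are therefore given also without it. Named genes whose trend call was lost without a library of the top dose are said to have lost it. For Yars, Ppp1r15a and Stc2 this is said only for the 3 together. The comparison of 6 mmol/kg with vehicle was not rerun without replicate 1. In this whole-organ RNA, fewer cells of a type and less RNA per cell cannot be told apart.

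Promoters of 5 rising genes of the amino acid response are shown first, because they hold the letters TGATGNAA, the core of the element that ATF4 binds with its partners. The sequences are RefSeq's, build GRCm38.p6, 5′ to 3′ on the strand of the gene, with the matching letters, on either strand, in capitals. The Chac1 (chr2:119350992-119351141, plus strand), Gars (chr6:55037851-55038000, plus), Asns (chr6:7693210-7693359, minus) and Fgf21 (chr7:45615551-45615700, minus) windows are stretches of 150 bases upstream of the gene, which end at its start for Gars and Asns and further upstream for Chac1 and Fgf21. The Trib3 window (chr2:152344031-152344060, minus) is the first 30 transcribed bases.
Trib3: agattagctcaggtTTACATCAgccgggcg
Chac1: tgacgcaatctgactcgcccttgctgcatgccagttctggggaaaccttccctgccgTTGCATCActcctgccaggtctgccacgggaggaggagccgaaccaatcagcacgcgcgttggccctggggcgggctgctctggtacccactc
Gars: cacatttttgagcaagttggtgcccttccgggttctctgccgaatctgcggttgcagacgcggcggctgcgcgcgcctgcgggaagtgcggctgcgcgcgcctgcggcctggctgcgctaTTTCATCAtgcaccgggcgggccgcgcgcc
Asns: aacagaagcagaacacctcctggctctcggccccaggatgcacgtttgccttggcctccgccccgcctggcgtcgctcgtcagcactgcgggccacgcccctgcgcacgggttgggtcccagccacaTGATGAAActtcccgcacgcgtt
Fgf21: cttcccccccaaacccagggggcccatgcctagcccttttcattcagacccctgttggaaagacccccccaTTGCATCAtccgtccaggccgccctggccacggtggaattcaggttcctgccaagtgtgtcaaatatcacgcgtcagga
Of the 15 stress and amino acid genes that rose with dose (below), all had a RefSeq promoter, a window of 300 bases, and 8 of these held the letters (53.3%), with Aars, Iars and Yars beside the genes printed. The letters were in 15 of 46 promoters of all tested members of that list (32.6%) and in 13 of 212 promoters of all genes that rose (6.13%). Both counts include the 8 above, so the 6.13% does not describe rising genes outside the list. Among genes that fell, 4 of 145 promoters held the letters (2.76%). They were in 298 of 10862 promoters of all tested genes (2.74%) and in 3.97% of all 32851 windows of the table. A match is a run of letters and not a measured binding site.

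The fatty acid binding protein Fabp1, a classic PPARa target, is shown for the other main group. Its promoter (chr6:71199729-71199878, plus strand) holds 2 copies of AGGNCA separated by 1 base, the direct repeat that PPARa binds with its partner receptor, here on the opposite strand and in capitals.
Fabp1: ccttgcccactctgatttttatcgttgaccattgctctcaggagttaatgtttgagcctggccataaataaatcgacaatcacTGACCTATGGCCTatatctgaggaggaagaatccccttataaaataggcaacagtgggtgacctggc
That repeat was in 1 of 28 promoters found for the 37 PPARa genes that rose and in 36 of 10862 promoters of all tested genes (0.331%).

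The first comparison asked which genes followed dose rank. Of 13818 genes tested, 466 had a slope at an adjusted p under 0.05 in edgeR's quasi-likelihood test (3.37%), 268 higher with dose (1.94%) and 198 lower (1.43%). Against vehicle, 392 genes passed at 6 mmol/kg (2.84%), 159 higher and 233 lower. In the same edgeR fit none passed at 0.22, 0.67 or 2 mmol/kg, where 1059, 1264 and 882 genes had an unadjusted p under 0.05, against 2404 at 6 mmol/kg. The trend count depended on the top dose, with 221 genes without 6 mmol/kg replicate 1, 288 without replicate 2 and 197 without replicate 3. It was 286 without vehicle replicate 2 and 306 without 0.22 mmol/kg replicate 1.

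Genes of fatty acid oxidation made the largest group. In a list of PPARa target and oxidation genes with 57 tested members, 37 rose with dose, 2 fell and 18 did not pass. The median slope of the list was 0.17 log2 per rank, against 0.0035 over all tested genes. Its median change against vehicle was -0.04 at 0.22, 0.13 at 0.67, 0.27 at 2 and 0.78 at 6 mmol/kg. Without the library that stood apart, 31 of the 57 rose. The list was drawn up with earlier results of these data known and its count is a description.

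The fatty acid hydroxylase Cyp4a14 (chromosome 4, 115486200 to 115496158) had the steepest slope of all named genes. Its level was 9.1 and 11.9 CPM in the vehicle libraries, 12.3, 10.8 and 18.9 CPM at 0.22, 71.8, 21.4 and 20.4 CPM at 0.67, 63.7, 165 and 122 CPM at 2, and 2480, 361 and 294 CPM at 6 mmol/kg. The 3 upper groups lay above all libraries at vehicle and 0.22 mmol/kg, 0.67 overlapped 2 mmol/kg, and 6 mmol/kg replicate 1 was far above the others. The slope was 1.74 ± 0.23 log2 per rank (SE, n = 14, edgeR adjusted p = 0.00263) and 1.32 without that library (adjusted p = 0.000725). Its close relative Cyp4a10 rose by 0.76 ± 0.10 per rank (adjusted p = 0.00167). Reads of the near-identical Cyp4a and Acot genes may be split or set aside in counting, so their levels are uncertain.

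Acot1 (chromosome 12, 84009502 to 84017670), a cytosolic acyl-CoA thioesterase, rose more evenly. It was at 81.6 and 71.6 CPM in vehicle, 71, 77.4 and 90.8 CPM at 0.22, 158, 112 and 138 CPM at 0.67, 185, 217 and 179 CPM at 2, and 600, 294 and 304 CPM at 6 mmol/kg. The groups from 0.67 mmol/kg up did not overlap each other or the 2 lower groups, which overlapped. The slope was 0.63 ± 0.07 (adjusted p = 0.000921).

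Angptl4, an inhibitor of lipoprotein lipase, was at 26.2 and 23.2 CPM in vehicle, 27, 37.6 and 50.1 CPM at 0.22, 76.8, 38.9 and 45.6 CPM at 0.67, 84, 118 and 127 CPM at 2, and 254, 89.7 and 164 CPM at 6 mmol/kg. All dosed libraries lay above both vehicle libraries, while the 2 top doses overlapped. Its slope was 0.71 ± 0.08 (adjusted p = 0.00126). Fabp1 was at 12.8 and 13.1 CPM in vehicle, 15.3, 12.9 and 10.5 CPM at 0.22, 35.6, 14.2 and 26.7 CPM at 0.67, 30.5, 39.7 and 30.9 CPM at 2, and 66.8, 70.8 and 52.8 CPM at 6 mmol/kg. The 6 mmol/kg libraries were all above the rest, and 0.67 mmol/kg spread widely.

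Pdk4, which holds back glucose oxidation, was at 418, 64 and 134 CPM at 6 mmol/kg against 16.5 and 20.3 CPM in vehicle. Its slope of 0.76 ± 0.17 (adjusted p = 0.0311) was 0.46 without 6 mmol/kg replicate 1 and no longer passed (adjusted p = 0.111), nor did it pass without replicate 3 (adjusted p = 0.0609). Igfbp1, an insulin-like growth factor binding protein induced in fasting, stood at 42, 4.54 and 15.4 CPM at the top dose against 1.49 and 2.42 CPM, with a slope of 0.78 ± 0.15 (adjusted p = 0.0138). Both genes were highest in the library that stood apart. Among peroxisomal and mitochondrial enzymes, chosen after their values were seen, Acaa1b rose by 0.45 ± 0.06, Eci1 by 0.28 ± 0.03, Ehhadh by 0.32 ± 0.06 and Cpt1a by 0.14 ± 0.03 per rank. Cpt1a did not pass without replicate 1 or 3 of the top dose (adjusted p = 0.0582 and 0.0612). The 2 members that fell were the male-biased fatty acid hydroxylase Cyp4a12a (-0.10 ± 0.02) and the ketone body enzyme Bdh1 (-0.11 ± 0.03), which did not pass without any one of the 3 top-dose libraries (adjusted p of 0.0791 to 0.106).

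**Figure D1:**
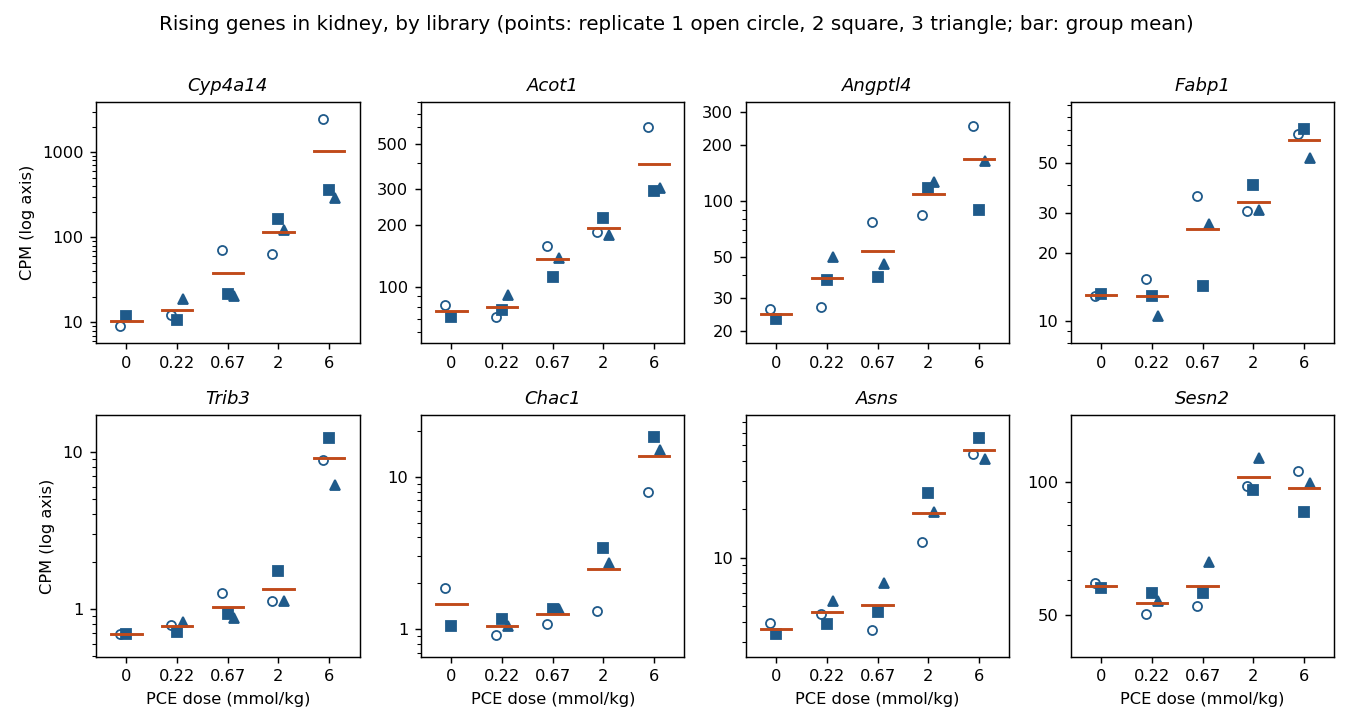
Level in CPM on a log axis against PCE dose in mmol/kg for 4 genes of fatty acid metabolism (top) and 4 of the stress and amino acid response (bottom), with 1 point per library and a bar at the group mean. Acot1 is at 71 to 90.8 CPM at 0.22 and 112 to 158 CPM at 0.67 mmol/kg, Trib3 stays at or below 1.75 CPM up to 2 mmol/kg, and Sesn2 did not overlap between 0.67 and 2 mmol/kg.

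The second group was that of genes induced by ER stress or amino acid shortage, of which 15 of 53 tested rose with dose, none fell and 38 did not pass. Its median slope was 0.096. Without 6 mmol/kg replicate 1 or 2, 13 rose, and without replicate 3, 14 did. The 15 were genes of amino acid synthesis and one-carbon metabolism (Asns, Phgdh, Mthfd2), tRNA synthetases (Gars, Sars, Iars, Aars, Yars), regulators (Trib3, Atf5, Sesn2, Ppp1r15a), the glutathione-degrading enzyme Chac1 and the secreted Fgf21 and Stc2. Calls lost without a top-dose library were those of Yars, Ppp1r15a or Stc2, as the others passed each time. Which of these were lost is not given here. ER chaperones were not among the 15. The chaperone Hspa5 had a slope of -0.13 ± 0.13 (adjusted p = 0.645), and its partner Dnajb11 was lower at 6 mmol/kg than in vehicle by 0.71 ± 0.14 log2 (adjusted p = 0.017).

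Asns (chromosome 6, 7675165 to 7693209), the asparagine synthetase whose promoter is printed above, was at 3.9 and 3.34 CPM in vehicle, 4.48, 3.89 and 5.39 CPM at 0.22, 3.57, 4.61 and 6.99 CPM at 0.67, 12.5, 25.1 and 19.3 CPM at 2, and 43.9, 55.7 and 41.1 CPM at 6 mmol/kg. The 3 lower groups overlapped, and both upper groups stood clear of them and of each other. The slope was 1.01 ± 0.10 (adjusted p = 0.000921).

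Trib3 (chromosome 2, 152337425 to 152344060), a pseudokinase that feeds back on ATF4, changed later. Its level was 0.689 and 0.699 CPM in vehicle, 0.789, 0.717 and 0.826 CPM at 0.22, 1.27, 0.936 and 0.877 CPM at 0.67, 1.12, 1.75 and 1.13 CPM at 2, and 8.87, 12.3 and 6.18 CPM at 6 mmol/kg. The top dose was far above all others, while 0.67 and 2 mmol/kg overlapped. Chac1 (chromosome 2, 119351242 to 119354326) was at 1.87 and 1.05 CPM in vehicle, 0.915, 1.16 and 1.04 CPM at 0.22, 1.08, 1.35 and 1.36 CPM at 0.67, 1.31, 3.43 and 2.73 CPM at 2, and 7.95, 18.2 and 14.9 CPM at 6 mmol/kg. Only the top dose lay wholly above the vehicle libraries. The glycyl-tRNA synthetase Gars was at 102 and 100 CPM in vehicle, 116, 118 and 122 CPM at 2, and 187, 168 and 154 CPM at 6 mmol/kg.

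Atf5, a transcription factor that ATF4 induces, was at 2.33 and 1.72 CPM in vehicle, 3.36, 9.26 and 10.5 CPM at 2, and 4.51, 32.8 and 23.5 CPM at 6 mmol/kg, so the library that stood apart was the lowest at the top dose. There Atf4 was at 1.12 CPM against 12.4 and 12.1 CPM, and Hspa5 at 1.24 against 12.1 and 9.04 CPM. The slope of Atf5 was 0.88 ± 0.15 (adjusted p = 0.00785) over all 14 libraries. Fgf21, a hormone of the fasting response that counts in both lists, was at 0.153 and 0.0636 CPM in vehicle and at 1.68, 2.3 and 2.72 CPM at 6 mmol/kg, with a slope of 1.61 ± 0.22 (adjusted p = 0.00222). Those levels rest on few reads.

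The course of the 2 groups along the dose axis was then set side by side. At 2 mmol/kg the 37 rising PPARa genes stood at a median of 45.1% of their log2 change at 6 mmol/kg, with a range of 20.6 to 77.5%. For the 15 rising stress and amino acid genes the median was 34.3%, with a range of 23 to 110%, so the ranges overlapped. Over all 268 rising genes it was 51.3%. Trib3 stood at 25.2%, Chac1 at 23.8% and Gars at 31.1%, while Acot1 stood at 56.2%, Fabp1 at 60.2% and Angptl4 at 77.5%.

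A line fitted up to 2 mmol/kg, leaving out the top dose, called 7 of 13713 genes (0.051%). They were Acaa1b, Acot1, Angptl4, Cyp4a10, Eci1 and Vnn1, all members of the PPARa list and all higher, and the serine protease Tmprss9, lower. Acot1 rose by 0.49 ± 0.06 per rank over those doses (adjusted p = 0.00755) and Angptl4 by 0.71 ± 0.10 (adjusted p = 0.0396). Trib3 was at 0.33 ± 0.08 (adjusted p = 0.253) and Chac1 at 0.32 ± 0.14 (adjusted p = 0.669), which did not pass. Without 0.22 mmol/kg replicate 1 or 2 mmol/kg replicate 1, 4 genes passed, and none passed once library slopes on GC content and length were fitted.

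Between neighbouring doses, no gene passed from vehicle to 0.22 or from 0.22 to 0.67 mmol/kg in edgeR, where 1059 and 1502 genes had an unadjusted p under 0.05. DESeq2 called 1 and 51. Sesn2, an amino acid sensor that is also a p53 target, was the only gene to pass from 0.67 to 2 mmol/kg (0.00724%). That count was 53 without 2 mmol/kg replicate 1, 18, 6 and 7 without 6 mmol/kg replicate 1, 2 and 3, 4 without 0.67 mmol/kg replicate 3 and 0 without 0.22 mmol/kg replicate 3, 0.67 mmol/kg replicate 1 or 2 or 2 mmol/kg replicate 3, and DESeq2 called 267. From 2 to 6 mmol/kg 7 genes passed (0.0507%), and Trib3, Gars, Chac1, Fgf21, Acot2 and the predicted gene Gm6614 were higher while the acetyltransferase Nat8f1 was lower. Trib3 rose by 2.77 ± 0.26 at that step (adjusted p = 0.000585) and Chac1 by 2.47 ± 0.35 (adjusted p = 0.0211). The count was 2 without 2 mmol/kg replicate 1, 4 without its replicate 2 or without 0.22 mmol/kg replicate 2 or 3, and 14 without 6 mmol/kg replicate 2.

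Sesn2 (chromosome 4, 132492804 to 132510456) was at 59.2 and 57.5 CPM in vehicle, 50.4, 56.1 and 53.8 CPM at 0.22, 52.5, 56.2 and 66 CPM at 0.67, 98, 95.8 and 113 CPM at 2, and 106, 85.4 and 99.6 CPM at 6 mmol/kg. The 8 lower libraries and the 6 upper ones formed separate bands that did not overlap. The change from 0.67 to 2 mmol/kg was 0.81 ± 0.10 log2 (adjusted p = 0.017) and that from 2 to 6 was -0.08 ± 0.10 (adjusted p = 0.836). Without 0.67 mmol/kg replicate 1 the first change was 0.75 with adjusted p = 0.177.

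**Figure D2:**
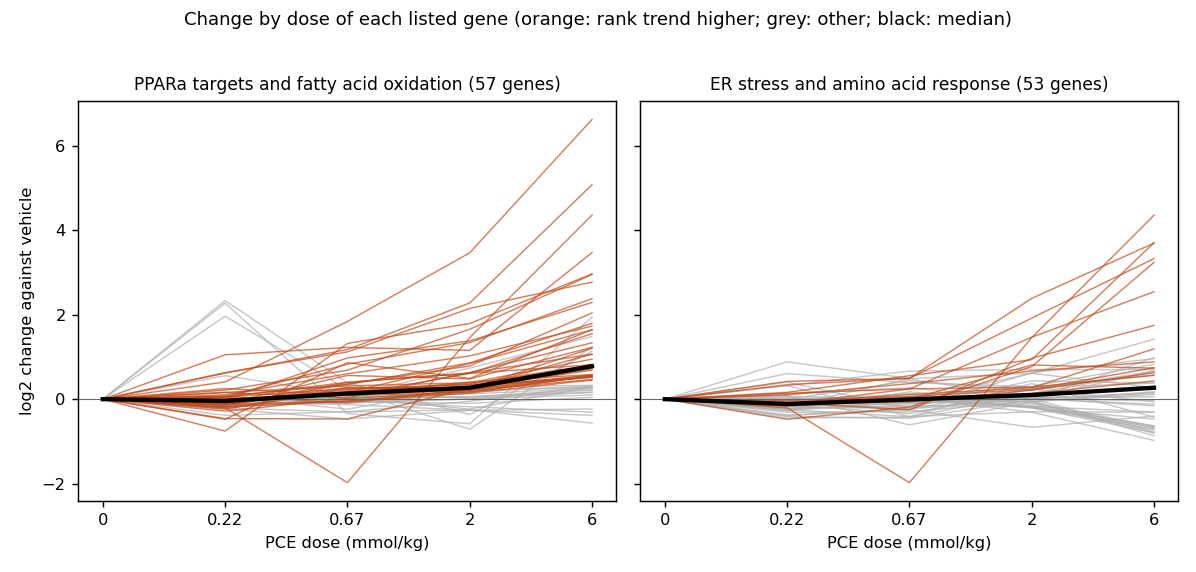
Log2 change against vehicle by PCE dose in mmol/kg for each tested gene of 2 lists, with genes whose rank trend was higher in orange, others in grey and the list median in black. The PPARa median is at -0.04, 0.13, 0.27 and 0.78, while the median of the stress and amino acid list is at 0.10 at 2 and 0.27 at 6 mmol/kg.

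Shape was described next for all genes that differed between any of the 5 dose groups, 436 of 13818 (3.16%). Leaving out 1 library gave 212 to 561, with the lowest counts without 0.67 mmol/kg replicate 3 (212) or replicate 1 (213), then 280 and 282 without a vehicle library and 289 without 6 mmol/kg replicate 3. For each gene, 9 patterns with a single size were compared by the deviance they explained. A line on rank or on mmol/kg was best for 260 genes (59.6%), a step from one dose upward for 133 (30.5%), and 1 dose set apart from the rest for 43 (9.86%). Many assignments were close, since the best shape led the next kind by over 10 points of deviance for only 86 of the 235 genes with a line on mmol/kg, 16 of the 25 with a line on rank, 46 of the 90 with a step from 2 and 9 of the 39 with a step from 6 mmol/kg. Over all 13818 tested genes the shares were 16.7%, 43.5% and 39.8%. Among the 466 genes called in the trend, a line was best for 79.6%, though a trend test favours lines by construction. Without 6 mmol/kg replicate 1, a line was best for 47.8% of the genes called between dose groups. A line as the best shape does not mean a change at every step. Group means moved the same way at every step in 9.4% of the 436 genes, 30.5% of the 466 and 3.21% of all tested.

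Lines on mmol/kg outnumbered lines on rank, 235 to 25, and by 249 to 122 among the 466 genes called in the trend. The margin between the 2 lines was not counted. How many graded genes changed more per rank at the top is therefore not given. The 27 PPARa genes called between dose groups were all best followed by a line, 19 on mmol/kg and 8 on rank. Of the 37 PPARa genes that rose in the trend, 12 had means that rose at every step, as had 81 of all 268 rising genes (30.2%). Of the 17 stress and amino acid genes, 15 followed mmol/kg, Asns followed rank and Sesn2 was a step from 2 mmol/kg. For Trib3, a line on mmol/kg explained 99.25% of the deviance between groups and a step at 6 mmol/kg 96.95%, so the 2 shapes could hardly be told apart. For Asns the line on rank explained 90.63% and that on mmol/kg 89.5%, and the nearest shape of another kind was 0.645 points behind. For Acot1 the line on rank explained 94.03% and the step at 6 mmol/kg 70.1%.

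Steps began at 2 mmol/kg for 90 genes, at 6 for 39, and at 0.22 and 0.67 for 2 each. Besides Sesn2, the gamma-glutamylcyclotransferase Ggct, an enzyme of the glutathione cycle, stepped down at 2 mmol/kg, from 63.8 to 77.9 CPM in the 8 lower libraries to 37.3 to 57.6 CPM in the 6 upper ones. The autophagy adaptor Sqstm1 was at 116 to 131 CPM in the 11 libraries up to 2 mmol/kg and at 167, 150 and 150 CPM at 6 mmol/kg. Fbxo32, a ubiquitin ligase of muscle wasting, was best described by a step from 0.22 mmol/kg, with 1.61 and 1.97 CPM in vehicle and 2.59 to 4.47 CPM in the 12 dosed libraries.

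**Figure D3:**
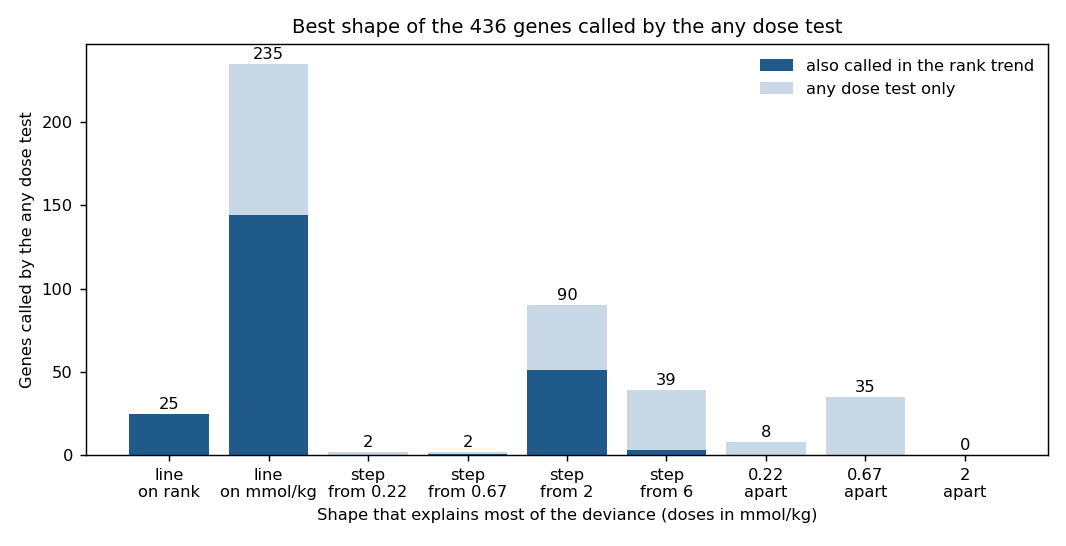
Number of genes called between any dose groups (436) by the shape that explained most of the deviance, with genes also called in the rank trend in dark blue. The line on mmol/kg holds 235 genes, the step from 2 mmol/kg 90, and no gene of the shapes with 1 dose apart was called in the trend.

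Curvature was tested as the change of slope from one rank to the next. It passed for 14 genes (0.101%), 8 bent upward and 6 downward. Trib3 had 0.74 ± 0.12 (adjusted p = 0.0409), Chac1 0.94 ± 0.15 (adjusted p = 0.0419) and Gars 0.17 ± 0.03 (adjusted p = 0.0443). No member of the PPARa list passed, with Acot1 at 0.24 ± 0.10 (adjusted p = 0.241) and Angptl4 at 0.08 ± 0.15 (adjusted p = 0.832). These calls lay close to the threshold. The count ran from 0, without either vehicle library among others, to 45 without 2 mmol/kg replicate 3, with 23 without 6 mmol/kg replicate 1, and was 0 with library GC and length slopes in the fit.

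A gene was said to turn when it changed one way and then back between doses, each at an unadjusted p under 0.01, which is a description. Of the 436 genes 84 turned (19.3%), against 2.43% of all tested genes. The 436 were picked by a test on the same group means, so a higher share was favoured by that choice. The turning point was a peak at 0.67 mmol/kg in 47 and a trough at 0.67 in 25. Lyz2, the lysozyme of macrophages and other myeloid cells, was at 6.62 and 6.49 CPM in vehicle, 10.5, 15.3 and 14.2 CPM at 0.22, 14.9, 14.5 and 20.7 CPM at 0.67, 8.42, 9.19 and 8.29 CPM at 2, and 9.98, 7.78 and 8.63 CPM at 6 mmol/kg. All dosed libraries were above vehicle, and both lower doses were above both upper ones. Its curvature was -0.47 ± 0.07 (adjusted p = 0.0383). The 12 macrophage markers in sum, Lyz2 among them, were at 95.4 to 111 CPM in vehicle, 124 to 167 at 0.22, 145 to 162 at 0.67, 87.4 to 141 at 2 and 86.9 to 125 at 6 mmol/kg. Of 11 tested, only Lyz2 passed between dose groups. C1qa, C1qb and C1qc did not pass, but each was above vehicle in all libraries of both lower doses. C1qb was at 5.01 and 4.01 CPM in vehicle, 7.26 to 12.5 at 0.22 and 10.2 to 11.3 at 0.67. It was at 5.81 to 7.9 CPM at 2 and 5.95 to 12.3 at 6 mmol/kg. Csf1r, the largest of the sum, overlapped vehicle, with 57.2 and 78.5 CPM there and 73.9 to 90.1 at 0.22. The part of macrophages in the Lyz2 result was not tested.

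The NADPH oxidase Nox4, which is abundant in kidney tubules, did the reverse. It was at 9.75 and 9.54 CPM in vehicle, 7.67, 6.38 and 6.18 CPM at 0.22, 4.23, 6.73 and 5.43 CPM at 0.67, 12, 9.87 and 14.2 CPM at 2, and 14.1, 16.6 and 18.8 CPM at 6 mmol/kg. Both lower doses lay below vehicle and both upper doses above it. The curvature was 0.48 ± 0.07 (adjusted p = 0.0383).

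Nat8f1, of the family of kidney acetyltransferases that finish mercapturic acids, was at 551 and 481 CPM in vehicle, 482, 460 and 449 CPM at 0.22, 649, 601 and 610 CPM at 0.67, 587, 545 and 507 CPM at 2, and 357, 343 and 393 CPM at 6 mmol/kg. It peaked at 0.67 and was lowest at 6 mmol/kg, with no overlap of either group with another. Nudt8, a mitochondrial nucleotide hydrolase, was at 98, 95.5 and 94.2 CPM at 0.67 mmol/kg and at 59.9 to 81.4 CPM in all 11 other libraries. Osbpl11, an oxysterol binding protein, was at 39.6, 39.5 and 39.9 CPM at that dose and at 44.8 to 56.6 CPM elsewhere. The same dose stood apart in Rps2 and Cox5b, a ribosomal protein and a respiratory chain subunit chosen after their values were seen. Rps2 was at 1490, 1340 and 1380 CPM against 1020 to 1220 CPM elsewhere. Between dose groups 1 of 46 ribosomal protein genes and 1 of 42 respiratory chain subunits differed, against 3.16% of all tested genes. Libraries at 0.67 mmol/kg had slopes of log2 level on GC content of 0.0796, 0.0584 and 0.014 per 10 points, all above 0. They were all below 0 at 6 mmol/kg and of both signs in the other 3 groups. The part of GC content in the turns was not tested gene by gene.

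**Figure D4:**
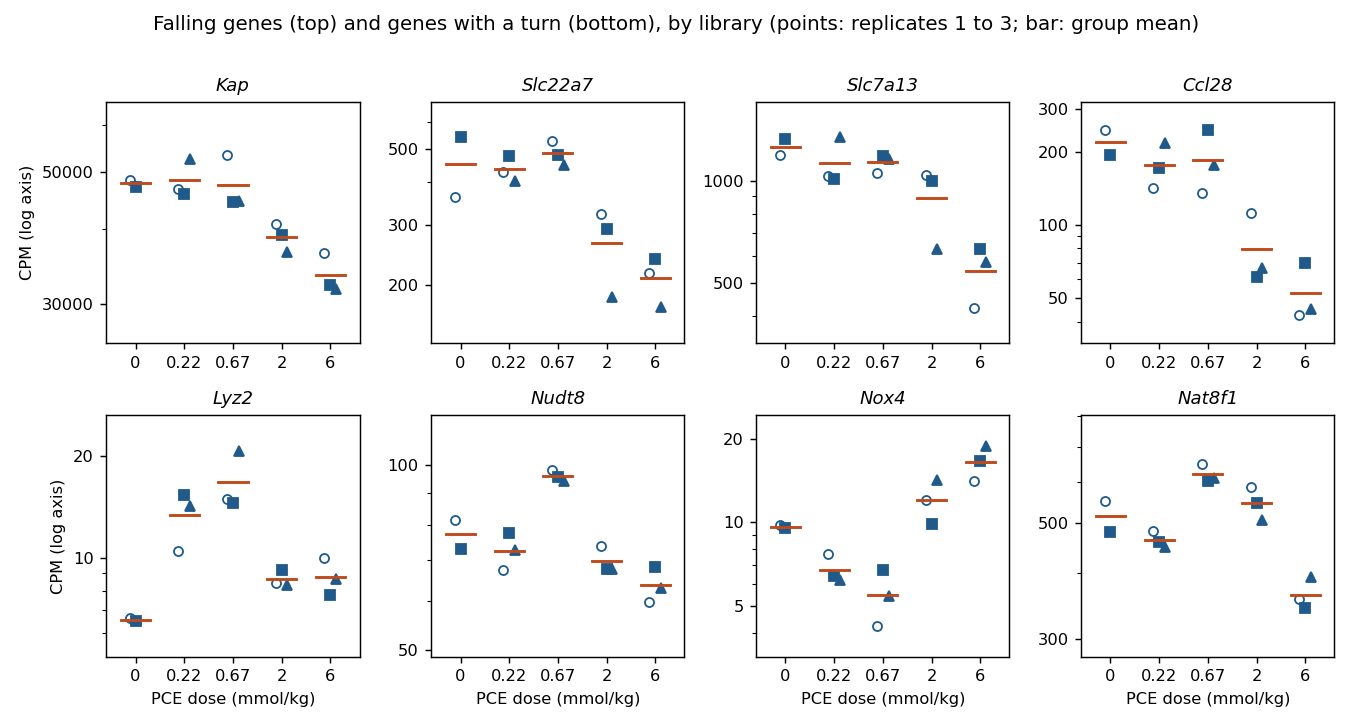
Level in CPM on a log axis against PCE dose in mmol/kg for 4 falling genes (top) and 4 genes with a turn (bottom), with 1 point per library and a bar at the group mean. Kap falls from 48500 and 47200 to 36500, 32200 and 31700 CPM, and Lyz2 and Nox4 move in opposite directions at the 2 lower doses.

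Among falling genes, proximal tubule products stood out by level. Kap, the androgen-regulated kidney protein and the most abundant of the genes named here, was at 48500 and 47200 CPM in vehicle, 46800, 45900 and 52600 CPM at 0.22, 53300, 44400 and 44600 CPM at 0.67, 40800, 39100 and 36600 CPM at 2, and 36500, 32200 and 31700 CPM at 6 mmol/kg. The 2 upper doses lay below all other libraries and did not overlap each other. Its slope was -0.14 ± 0.03 (adjusted p = 0.0104). Of 50 proximal tubule function genes 5 fell, 1 rose and 44 did not pass, where 1.43% of all tested genes fell. The organic anion transporter Slc22a7 was at 363 and 542 CPM in vehicle, 402 to 528 CPM at 0.22 and 0.67, 323, 292 and 184 CPM at 2, and 217, 239 and 172 CPM at 6 mmol/kg, with a slope of -0.32 ± 0.07 (adjusted p = 0.0257) that did not pass without any one of the top-dose libraries (adjusted p of 0.0536 to 0.0749). The amino acid transporter Slc7a13 fell from 1190 and 1320 to 425, 631 and 576 CPM (-0.28 ± 0.06 per rank, adjusted p = 0.0171, and 0.0567 without 6 mmol/kg replicate 3). Slc34a1 did not pass (-0.03 ± 0.03, adjusted p = 0.57).

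The member that rose was Cyp27b1, the enzyme that activates vitamin D. It was at 5.32 and 8.62 CPM in vehicle, 4.51 to 12.4 CPM at the 2 lower doses, 11.8, 25.5 and 24.3 CPM at 2, and 45.4, 30.8 and 26.5 CPM at 6 mmol/kg, a slope of 0.60 ± 0.11 (adjusted p = 0.0117). Libraries at 6 mmol/kg were all above the others, and 2 mmol/kg replicate 1 overlapped the lower doses.

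The steepest falls were in less abundant genes. Rnf180, a ubiquitin ligase, was at 17.1 and 19.4 CPM in vehicle, 7.54, 9.76 and 13.6 CPM at 0.22, 2.11, 11.2 and 11.6 CPM at 0.67, 8.21, 1.97 and 2.61 CPM at 2, and 1.64, 2.89 and 2.51 CPM at 6 mmol/kg. Every dosed library lay below vehicle, and the 3 upper doses overlapped. Its slope was -0.71 ± 0.14 (adjusted p = 0.013). The mucosal chemokine Ccl28 (chromosome 13, 119623819 to 119654359) fell from 246 and 195 to 42.7, 70 and 45.1 CPM (-0.55 ± 0.10, adjusted p = 0.0087). Smcp, Hapln1, Adh7, D14Ertd670e, Dcst1 and Hsf2bp, the other large falls with Tmprss9, had slopes of -0.45 to -0.30. Adh7, D14Ertd670e, Dcst1 and Hsf2bp did not pass without any one of the 3 top-dose libraries, Hapln1 without replicate 1 (adjusted p = 0.0551) or 3, and Smcp without replicate 3 (adjusted p = 0.06).

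Enzymes of the pathway that turns glutathione conjugates into mercapturates moved both ways. Of 49 tested genes 5 rose and 3 fell, where 1.94% of all tested genes rose and 1.43% fell. The glutathione transferase Gsta3 rose from 3.21 and 3.08 CPM to 5.95, 4.76 and 5.16 CPM at 6 mmol/kg (0.24 ± 0.04 per rank, adjusted p = 0.00785), and Gstt2, Mgst1, Gsto1 and the flavin monooxygenase Fmo2 rose as well. The aminoacylase Acy3, which removes the acetyl group from mercapturates, fell from 295 and 313 to 108, 170 and 167 CPM (-0.25 ± 0.05, adjusted p = 0.0164), with Lap3 and Fmo5. Fmo5 did not pass without any one of the top-dose libraries, Gsto1 without replicate 1 or 2, and Gstt2, Mgst1 and Fmo2 without replicate 3. Gstt2 was at 784 CPM in the library that stood apart and at 314 and 386 CPM in the other 2 of its dose.

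On each list of tubular injury, NRF2, p53, interferon and cell cycle genes, 1 gene or none passed in the trend. Since 1.94% of all tested genes rose, such counts on lists of 24 to 32 genes do not show a lack of response. Havcr1, which encodes the tubular injury marker KIM-1, was at 2.3 and 2.67 CPM in vehicle and 5.95, 9.49 and 5.74 CPM at 6 mmol/kg, and 4.22 to 7.29 CPM at 2 mmol/kg. Its slope of 0.32 ± 0.08 passed (adjusted p = 0.0416) but did not without any one of the 3 top-dose libraries, with adjusted p of 0.0666 to 0.134, nor without either vehicle library. It was the only 1 of 29 tubular injury genes to pass. Lcn2 was at 0.523 to 2.86 CPM in all libraries (adjusted p = 0.873), and Cdkn1a, the cell cycle inhibitor downstream of p53, had a slope of 0.22 ± 0.07 (adjusted p = 0.104), while at 6 mmol/kg alone it was higher than in vehicle by 1.22 ± 0.30 log2 (adjusted p = 0.0477). Of 32 NRF2 genes 1 rose, of 27 p53 targets 1 (Sesn2), of 24 interferon genes none and of 30 cell cycle genes none. At 6 mmol/kg against vehicle, 3 of the 32 NRF2 genes and 2 of the 27 p53 targets passed, where 2.84% of all tested genes did. The P450 Cyp2e1, which oxidizes small solvents, was at 2750 to 4680 CPM (adjusted p = 0.604).

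Of 22 tested genes of the circadian clock, 4 rose and none fell, where 1.94% of all tested genes rose. Only 2 of the 22 differed between dose groups, 1 of them with a step as its best shape. Ciart was at 0.922 to 1.81 CPM in the 8 lower libraries, 1.83, 5 and 4.42 CPM at 2 and 2.56, 2.74 and 6.66 CPM at 6 mmol/kg. A step from 2 mmol/kg was the best shape for Ciart, Wee1 and Cry2, whether or not they differed between dose groups. Yet Cry2 was at 34.2, 21.4 and 31.4 CPM at 6 mmol/kg against 22.4 and 20.1 CPM in vehicle, which overlap. Wee1 did not pass in the trend without any one of the top-dose libraries, Cry2 without replicate 1 or 3, and Ciart without replicate 3. The hour of sampling per library was not used here. Of 26 genes of glucose metabolism 6 rose, among them the mitochondrial Pck2, from 27.4 and 24.9 to 46.4, 49.4 and 43.8 CPM (0.21 ± 0.03, adjusted p = 0.00128).

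Other tissue in the samples varied between libraries. The brown fat marker Ucp1 was at 59.3 and 68.8 CPM in 0.22 mmol/kg replicates 2 and 3, at 111 CPM in 6 mmol/kg replicate 3 and at most 13.1 CPM elsewhere. The summed fat cell markers were at 302 to 448 CPM at 0.22 mmol/kg and 67.6 to 581 CPM at 6 mmol/kg, against 60.6 to 160 CPM in the other groups. Of 9 brown fat markers tested only Pdk4 was called in the trend and of 10 fat cell markers none. Without those 3 libraries, a smaller design with 1 library at 0.22 mmol/kg, 59 genes passed in the trend, all of them among the 466, and 14 of the PPARa and 5 of the stress and amino acid genes rose. The urothelial genes Krt5 and Upk1b were called between dose groups with 0.22 mmol/kg apart, at 0.6 to 3.52 CPM for Upk1b against at most 0.951 CPM elsewhere.

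The kidney was then compared under trichloroethylene (TCE), which carries a hydrogen in place of a chlorine of PCE, over 15 libraries at the same 4 molar doses and vehicle. Slopes of the 2 chemicals were fitted together and their difference tested in 14216 genes, of which 3 passed (0.0211%), all with the higher slope under PCE. Trib3 had 0.98 under PCE and 0.04 ± 0.12 under TCE, a difference of 0.94 ± 0.17 (adjusted p = 0.0438). Chac1 differed by 1.04 ± 0.19 and the chaperonin subunit Cct4 by 0.11 ± 0.02 (both with adjusted p = 0.0438). These calls lay close to the threshold: no gene passed without the count filter, and 0 to 9 did when 1 library was left out, with 0 without any 1 of the 3 top-dose PCE libraries. For Acot1 the difference was 0.40 ± 0.09 (adjusted p = 0.105), for Cyp4a14 0.92 ± 0.24 (adjusted p = 0.258) and for Fgf21 1.79 ± 0.35 (adjusted p = 0.0637), which did not pass and does not show that the chemicals act alike. Among the 37 PPARa genes that rose under PCE, 36 had a TCE slope above 0, as had 233 of all 268 genes that rose under PCE. Over the whole list of 57 the median was 0.05 under TCE and 0.17 under PCE.

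**Figure D5:**
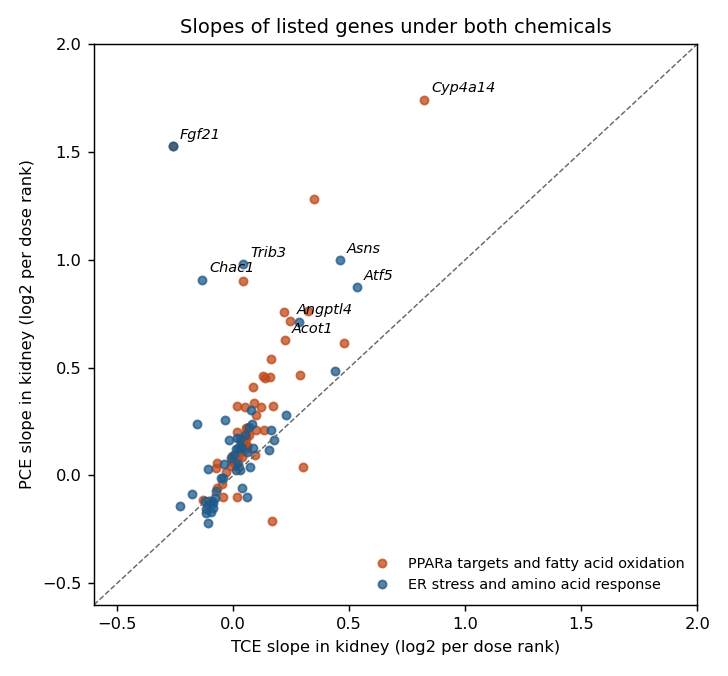
Slope in log2 per dose rank in kidney under TCE (x axis) and PCE (y axis) for each tested gene of the 2 lists, with the line of equal slopes dashed. Trib3 (0.98 against 0.04) and Chac1 (0.91 against -0.13) lie high above the line, and most genes of both lists sit above it.

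In liver, the slope over the same PCE doses differed from that in kidney for 319 of 14745 genes (2.16%), 160 higher in kidney and 159 lower. Several amino acid genes had the higher slope in kidney. Asns had 0.99 in kidney and 0.13 ± 0.10 in liver (adjusted p of the difference = 0.00252), Mthfd2 0.70 and -0.11 ± 0.09 (adjusted p = 0.00117) and the translation repressor Eif4ebp1 0.46 and -0.02 ± 0.04 (adjusted p = 0.00013). Gstp3, a glutathione transferase, had 0.83 against -0.31 ± 0.08 (adjusted p = 2.68e-05). PPARa genes went both ways, with 5 called with the higher slope in kidney and 6 with the higher slope in liver. Among them, Cyp4a10 had the higher slope in liver, 1.54 ± 0.14 against 0.76 (adjusted p = 0.0241). So had the fatty acid transporter Slc27a2, 0.33 ± 0.03 against 0.03 (adjusted p = 0.000379). For Acot1 the slopes were 0.62 and 0.69 ± 0.09 (adjusted p = 0.836). Hsd17b11, a lipid droplet enzyme, had -0.15 in kidney and 0.33 ± 0.03 in liver (adjusted p = 3.35e-06). Its fall in the kidney trend did not pass without any one of the top-dose libraries (adjusted p of 0.0541 to 0.0616). The count of 319 was 107 without vehicle kidney replicate 2, 116 without liver vehicle replicate 2 and 955 without liver vehicle replicate 3. Liver libraries at vehicle and 6 mmol/kg held at least 88048143 counts, and those at the doses between at most 53386583. The part of depth in the differences was not tested. Same-numbered libraries of the 2 tissues were not paired in the fit.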

How the data were processed

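RNA was sequenced from kidney with a TruSeq total RNA kit, per the labels' protocols. The deposited table holds whole raw counts per RefSeq transcript, per the file headers. Columns at 0.22 and 0.67 mmol/kg carry a decimal dose line and were read under the unit of expected counts, but each deposited value is whole and rounding changed none. CASAVA 1.8.2, TopHat2 2.0.10, HTSeq and mm10 are named in the submitters' processing notes. HTSeq set aside 19.98 to 21.39% of reads as ambiguous and 20.49 to 24.22% as matching no feature, and both lines were left out. Since counting was per transcript, genes with several isoforms can be undercounted. Transcripts (33392) were named by accession from RefSeq GRCm38.p6 (32988), by the deposited symbol (278) or kept as accessions (126), and summed to 24122 genes. Positions are from the same RefSeq build, which shares its main chromosomes with mm10.

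Tests were run in edgeR 4.0.16 (R 4.3.3) on the counts, with TMM, filterByExpr and a robust quasi-likelihood fit over the 14 libraries, with a line on rank or 1 mean per group. The differences of slope used the 29 kidney libraries or the 28 PCE libraries. Calls are two-sided at a Benjamini-Hochberg adjusted p under 0.05 over all genes tested. SE is the absolute log2 value divided by the square root of F. CPM uses TMM library sizes, except in the count of genes that set 1 library apart, which uses library totals. Replicates were compared over 13 pairs within groups, which all differed beyond sampling noise. Same-numbered libraries did not deviate together (correlations of -0.21 to 0.28 over 26 pairs), so no block was used. Scripts were tested on simulated data. Genes were named by a written rule (mean of at least 1 CPM, no predicted names): the 10 steepest slopes each way, the smallest adjusted p of each list, 5 bends each way, 2 genes each way per shape, 3 each way per step and slope difference, and 10 genes whatever their result. Other genes, among them Gm6614, Fgf21, Dnajb11, Atf4, Hspa5, Acot2, Vnn1, Slc7a13, Cyp27b1, Acy3 and Ciart, were chosen after values were seen. Not every gene the rule picks is described, and some are not reported here. The lists and members were chosen with earlier results of these data known. Alternatives were DESeq2 1.42.0 and its size factors, 2 other count filters, the replicate number as a block, all 29 kidney libraries in 1 fit, TCE vehicle libraries added, dose in mmol/kg, dosed libraries alone and each library left out.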

Additional observations from a re-analysis of the deposited data

Results flagged for a closer look

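In kidney, 3 genes had a dose rank slope that differed between PCE and TCE by a test of the difference itself, with values of 0.94 for Trib3, 1.04 for Chac1 and 0.11 for Cct4 log2 per rank, higher under PCE. Between kidney and liver under PCE, 319 genes had slopes that differed. Among the genes named by the rule, the kidney slope was higher by 1.15 for Gstp3, 0.92 for Atf5, 0.86 for Asns, 0.81 for Mthfd2, 0.67 for Trib3, 0.48 for Eif4ebp1, 0.33 for Insig1, 0.22 for Pck2 and 0.16 for Gars. It was lower, as kidney minus liver, at -0.98 for Rnf180, -0.79 for Cyp4a10, -0.48 for Hsd17b11, -0.46 for Fbf1, -0.33 for Eri2, -0.3 for Slc27a2 and -0.25 for Ggct. No group of 2 or 3 libraries was tested for a single outlying value.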

How the results depend on the processing

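DESeq2 called 972 genes in the rank trend, 1677 between any doses, 399 in curvature, 103 in the trend up to 2 mmol/kg, 1, 51, 267 and 125 at the 4 steps, 23 for PCE minus TCE and 882 for kidney minus liver. With no filter there were 22 in curvature, 10 from 0.67 to 2 mmol/kg, 0 for PCE minus TCE and 152 for kidney minus liver, and a filter at 1 CPM gave 29 in curvature. The replicate block gave 289 between any doses, 0 in curvature, 6 from 0.67 to 2, 4 up to 2 mmol/kg and 0 for PCE minus TCE, while the numbers did not pair the libraries. A fit of 29 libraries gave 752 in the trend, 760 between any doses, 2 from 0.67 to 2 and 21 from 2 to 6 mmol/kg. TCE vehicle libraries added to the vehicle gave 919, 811, 3 from 0.67 to 2, 108 in curvature and 18 up to 2 mmol/kg. Dose in mmol/kg gave 1482 in the trend and 25 for PCE minus TCE. Chosen after seeing the data, library GC and length slopes gave 710 in the trend, 245 between any doses, and 0 each in curvature, from 0.67 to 2 and up to 2 mmol/kg. Also chosen so, leaving out the 3 libraries highest in Ucp1 gave 59 in the trend, 14 between any doses, 14 PPARa genes and 5 stress and amino acid genes. The graded share was 79.6% over trend genes against 59.6%, and 47.8% without 6 mmol/kg replicate 1. Leaving out 1 library gave 197 to 537 genes in the trend, 212 to 561 between any doses, 0 to 45 in curvature, 4 to 7 up to 2 mmol/kg, 0 to 10 from 0.22 to 0.67, 0 to 53 from 0.67 to 2, 2 to 14 from 2 to 6, 0 to 9 for PCE minus TCE and 107 to 955 for kidney minus liver, with 29 to 37 PPARa genes and 13 to 16 stress and amino acid genes. The cause of these shifts was not tested. A vehicle group of 2 libraries limits each comparison with it, and genes under 1 CPM rest on few reads.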
